A study of Mus musculus with 6 samples.

Results

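The interleukin 2 receptor and STAT5 axis was followed in control and RTF1-deficient mouse Th17 cells in culture through 8 genes, chosen by name. They are Il2, the receptor chain genes Il2ra, Il2rb and Il2rg, the kinase genes Jak1 and Jak3, and Stat5a and Stat5b. All 8 were among the 31017 genes listed in the deposited count table, and all 8 were among the 14268 genes with enough counts to be tested. The study compared 3 control libraries (genotype WT) with 3 libraries of RTF1-deficient cells (genotype KO), all from Th17 cells differentiated in vitro. RTF1 is a nuclear factor that works with RNA polymerase II during transcript elongation and promotes ubiquitination of histone H2B. The strain, age and sex of the mice, the culture conditions, the allele and how RTF1 was removed are not given in the sources used here. Nothing states that libraries of a group came from separate animals or cultures, so the p-values measure the spread between these libraries.

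Interleukin 2 is a T cell growth factor that activated T cells make and also respond to. Its high-affinity receptor is built from an alpha chain (CD25, Il2ra), a beta chain (CD122, Il2rb) and the common gamma chain (Il2rg). The beta chain carries JAK1 and the gamma chain carries JAK3, and these kinases phosphorylate the transcription factors STAT5A and STAT5B. In Th17 cultures, IL-2 acting through STAT5 is known for restraining the transcription of Il17a.

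Library totals ran from 16489813 to 51271226 counts. Rtf1, the check of the labels, held 88.3 to 94.0 CPM (a gene's reads scaled to a common library size with TMM factors) in control and 26.2 to 45.3 CPM in KO. Its transcript was thus 2.68-fold lower in KO but still present in every KO library. Cells carried T helper transcripts in both groups: the 8 T cell and Th17 markers summed to 2729 to 3268 CPM in control and 1707 to 2151 CPM in KO. Il17f gave the largest part of this sum, averaging 1232 ± 301 CPM in control and 507 ± 270 CPM in KO (SD, n = 3). The markers did not move together: 3 of the 8 had a higher estimate in KO, among them Cd3e, and 5 a lower one, among them Cd4, Il17a and Il17f. Markers of other cells were low, with 5 B cell genes at 1.24 to 3.09 CPM in control and 1.74 to 2.62 CPM in KO. The 6 myeloid genes summed to 0.784 to 0.851 and 2.24 to 4.37 CPM. The 5 CD8 and NK cell genes summed to 10.7 to 14.9 and 13.7 to 14.5 CPM, with Ncr1 and Klrb1c at 0 in every library. The part of these other cells in the results was not tested. In bulk RNA, fewer cells with a transcript and less of it per cell cannot be told apart.

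Within the axis, Il2ra was 2.87-fold lower in KO, while Il2rg, Jak1 and Stat5a rose by 1.59-, 1.57- and 1.42-fold. Il2, Il2rb, Jak3 and Stat5b did not pass the test, which did not use the replicate numbers. With the replicate number as a block, Jak3 and Stat5b passed. A gene was called when its p-value from edgeR's quasi-likelihood test, adjusted over all 14268 genes, was under 0.05. That made 3 of the 8 genes higher and 1 lower, where 23.2% of all tested genes were called higher, 22.9% lower and 46.1% in either direction. The 4 called of 8 are thus close to the background share. In 7 of the 8 genes no KO library overlapped a control library, against 57.9% of all tested genes. The median log2 fold change of the 8 was 0.10, beside 0.013 over all tested genes, and the median size of the change was 0.58 beside 0.53.

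**Figure D1:**
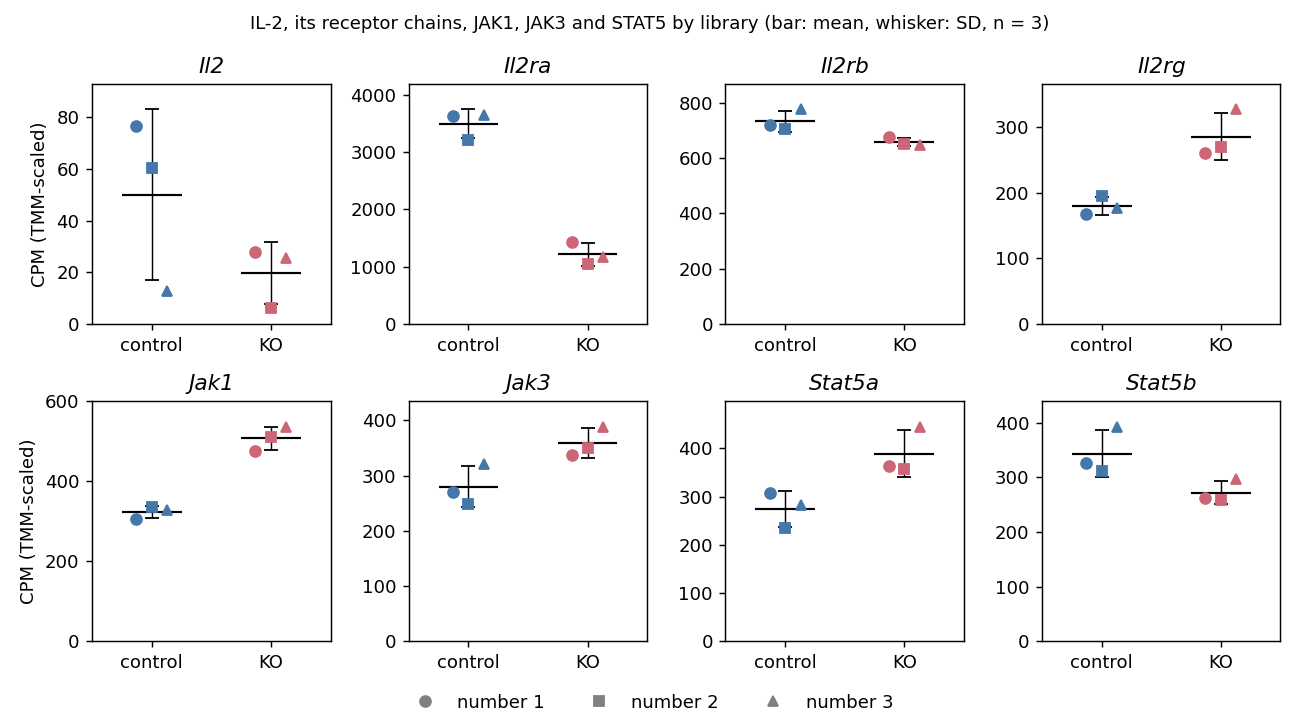
Level of each of the 8 genes in CPM (vertical axes, from 0) in the 3 control (blue) and 3 KO (red) libraries, with symbols for the replicate number, bars for means and whiskers for the SD. Il2ra lies at 3209 to 3650 CPM in control and 1049.8 to 1433 CPM in KO, whereas the Il2 values of the groups overlap.

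The ligand gene Il2 had the widest spread within groups, relative to its mean, of the 8. It lies on the minus strand of chromosome 3 at chr3:37120523-37125959 (mm10, gene model from GENCODE M21) and spans 5.4 kb. Its values were 76.5, 60.5 and 12.97 CPM in the control libraries numbered 1, 2 and 3, and 28.1, 6.17 and 25.4 CPM in the KO libraries of the same numbers. Control replicate 3 fell among the KO values, so the groups overlapped. Control averaged 49.995 ± 33.04 CPM and KO 19.9 ± 11.9 CPM (SD, n = 3), and the fitted change of -1.33 ± 0.662 (log2, SE) was not called (edgeR adjusted p = 0.128). Between libraries of equal number, Il2 was lower in KO for numbers 1 and 2 (log2 differences of -1.45 and -3.28) and higher for number 3 (0.96). Replicate 3 of each group also held nearly all Y-linked reads, 11376 and 5147 counts against 1 to 3 in each other library, and the part of this in the result was not tested. Without control replicate 3 Il2 was called (-1.85, edgeR adjusted p = 0.00782), as it was with the libraries numbered 1 and 2 alone (-2.02, adjusted p = 0.00595) and with no filter on low counts (-1.35, adjusted p = 0.0421). Of the 50-base stretches of its transcript, 12.6% also occur in transcripts of other genes, mainly Ntan1, so part of its count is uncertain.

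The stretches before the starts of Il2, Il2ra and Il2rg are shown because these genes are the ligand, the chain that fell and the chain that rose. RefSeq (GRCm38.p6, the assembly of mm10) gave such a sequence for 7 of the 8 genes, Il2rb being the other. The up to 250 bases before the annotated start are printed 5′ to 3′ on the gene's strand, without bases that GENCODE M21 places in an exon. They cover chr3:37125960-37126204 (minus strand) for Il2, chr2:11642542-11642791 (plus strand) for Il2ra and chrX:101268256-101268505 (minus strand) for Il2rg. Capitals mark GGAAA, the core bound by NFAT factors, on either strand, and TATAAA, the TATA box.
Il2: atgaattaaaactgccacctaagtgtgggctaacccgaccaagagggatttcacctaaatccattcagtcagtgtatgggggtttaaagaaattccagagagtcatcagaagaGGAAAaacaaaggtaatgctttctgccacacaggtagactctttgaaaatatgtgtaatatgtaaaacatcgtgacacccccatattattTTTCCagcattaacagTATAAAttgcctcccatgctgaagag
Il2ra: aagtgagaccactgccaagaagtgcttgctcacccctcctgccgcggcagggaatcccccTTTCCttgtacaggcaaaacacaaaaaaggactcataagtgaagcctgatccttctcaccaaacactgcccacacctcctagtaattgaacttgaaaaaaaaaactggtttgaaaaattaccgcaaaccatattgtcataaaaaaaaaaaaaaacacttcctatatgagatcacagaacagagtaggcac
Il2rg: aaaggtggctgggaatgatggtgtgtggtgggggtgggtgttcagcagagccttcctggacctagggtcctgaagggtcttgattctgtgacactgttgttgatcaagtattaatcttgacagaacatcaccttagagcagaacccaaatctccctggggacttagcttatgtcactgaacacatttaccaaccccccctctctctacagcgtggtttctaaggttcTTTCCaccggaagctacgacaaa
Il2 held GGAAA cores that begin 137 and 47 bases before the start, on opposite strands, and a TATA box 31 bases before it. Il2ra held 1 such core at 190 bases and Il2rg 1 at 23 bases, neither with TATAAA. The 4 motifs were searched on both strands in the 250 bases before all 32851 starts in the table, and GGAAA occurred in 55.6% and TATAAA in 12.4% of them. Neither the AP-1 motif TGANTCA (6.75% of starts) nor the STAT motif TTCNNNGAA (7.02%) occurred in the 250 bases before any of the 7 genes. These matches describe letters only.

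Il2ra, whose product gives the receptor its high affinity, was the most abundant of the 8 transcripts and changed most among the called ones. It lies at chr2:11642807-11693193 on the plus strand and spans 50.4 kb. The control libraries held 3623, 3209 and 3650 CPM in order of number, and the KO libraries 1433, 1049.8 and 1165 CPM. Every KO library lay below every control library. The mean fell from 3494 ± 248 to 1216 ± 196 CPM (mean ± SD, n = 3), and the model gave -1.52 ± 0.158 (SE) as log2 fold change with an edgeR adjusted p = 0.000264. The call held in each of the 12 alternative fits, with log2 fold changes of -1.66 to -1.42. Sequence shared with other genes makes up only 1.78% of its 50-base stretches. CD25 (Il2ra) is also a marker of regulatory T cells. The 5 markers listed for those cells summed to 59.6 to 73.3 CPM in control and 90.1 to 119 CPM in KO. Of these markers 3 were called higher, where 23.2% of all tested genes were, and none lower. The other 2 had estimates of -0.14 and -0.13 and were not called. Ikzf2 averaged 10.8 ± 2.92 CPM in control and 35.9 ± 10.1 CPM in KO, and Nrp1 11.6 ± 3.28 and 22.3 ± 4.20 CPM (SD, n = 3). Foxp3, the defining factor of those cells, stood at 1.42 ± 0.199 and 3.29 ± 1.32 CPM. The part of regulatory T cells in the result was not tested.

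Il2rb, which encodes the signalling chain shared with the IL-15 receptor, was not called. The gene lies at chr15:78479256-78495271. Control libraries held 718, 704 and 776 CPM and KO libraries 674, 652 and 648 CPM, for replicates 1, 2 and 3 in order. The groups did not overlap, and the lowest control library stood close above the highest KO library. The fitted change was -0.15 ± 0.113 (log2, SE; edgeR adjusted p = 0.290), and over the 12 alternatives it ran from -0.24 to -0.068 without a call.

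Il2rg, the chain shared by the receptors for IL-2, IL-4, IL-7, IL-9, IL-15 and IL-21, rose. It is a short gene of 3.9 kb at chrX:101264378-101268255. Control replicates 1, 2 and 3 held 168, 195 and 177 CPM, and the KO replicates held 261, 269 and 327 CPM. All KO libraries lay above all control libraries, with KO replicate 3 highest. The mean rose from 180.02 ± 13.9 to 286 ± 36.3 CPM (mean ± SD, n = 3), and the model gave 0.67 ± 0.130 (SE) as log2 fold change with an edgeR adjusted p = 0.00368, and the call held in all 12 alternatives. Its count is uncertain in part: 30.5% of its exonic bases are also annotated to Gm20489, which was itself counted at 0 or 1 read per library.

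Per length, the receptor transcripts came closer together in KO. Levels of different genes were compared as RPKM (CPM per kilobase of exonic length). Il2ra stood at 612 ± 43.3 RPKM in control and 213 ± 34.4 RPKM in KO, Il2rb at 171 ± 8.86 and 153 ± 3.32, and Il2rg at 75.4 ± 5.81 and 119.7 ± 15.2 (SD, n = 3). The sum over the 3 chains was 858 ± 44.9 RPKM in control and 486 ± 34.8 RPKM in KO. Il2ra made up 71.3% ± 1.61 of that sum in control and 43.6% ± 4.21 in KO, Il2rb 19.9% ± 0.628 and 31.7% ± 1.92, and Il2rg 8.83% ± 1.13 and 24.7% ± 3.40 (SD, n = 3). No share overlapped between the groups. These levels and shares carry the uncertainty of the Il2rg count, since 30.5% of the exonic bases of Il2rg are also annotated to Gm20489.

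**Figure D2:**
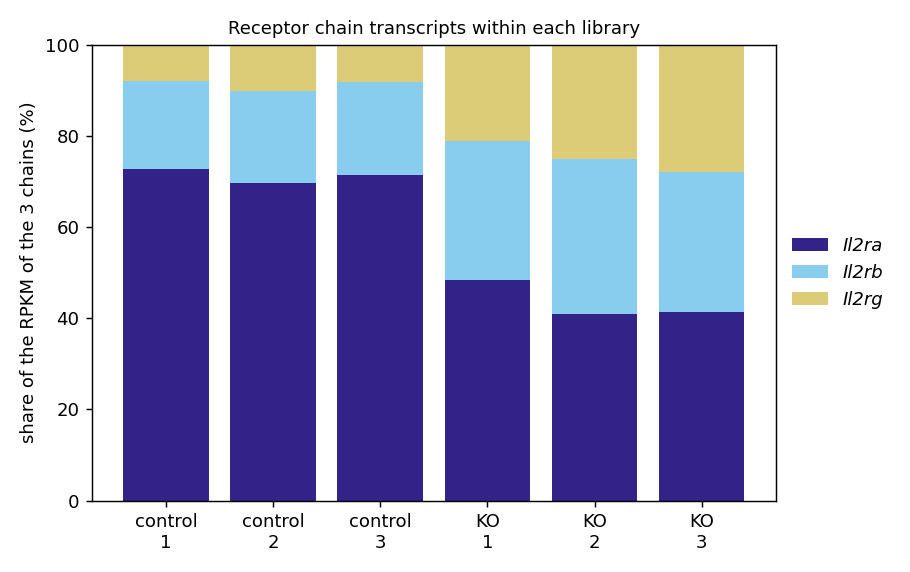
Share of each receptor chain in the summed RPKM of Il2ra, Il2rb and Il2rg (vertical axis, percent) within each of the 6 libraries. Il2ra takes 69.6% to 72.7% in the control libraries and 41.0% to 48.5% in the KO libraries.

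The unequal change of the chains was tested within libraries, where scaling cancels. Il2ra minus Il2rb, in log2 CPM, went from 2.25 ± 0.0754 in the control libraries to 0.87 ± 0.201 in the KO libraries (SD, n = 3), a shift of -1.38. Il2ra minus Il2rg shifted by -2.19, from 4.28 ± 0.210 to 2.08 ± 0.331. For Il2rb minus Il2rg the shift was -0.82, from 2.03 ± 0.152 to 1.21 ± 0.201. Each of these 3 differences separated the groups without overlap, but the third is the second minus the first and is no separate result. Among single genes, 57.9% of those tested separated the groups. An exact two-sided permutation test over the libraries gave p = 0.1 for each, also after adjustment over the 5 pairs compared, and 0.1 is the smallest p that 3 against 3 libraries allow.

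Of the receptor-bound kinases, Jak1 rose and Jak3 was higher in each KO library without passing the test. Jak1, which serves the beta chain, is the longest of the 8 genes at 112.9 kb (chr4:101152367-101265282). It held 307, 336 and 328 CPM in the control libraries by number, and 477, 511 and 534 CPM in the KO replicates. The groups were well apart, with means of 323 ± 15.1 and 507 ± 29.1 CPM (mean ± SD, n = 3), and the model gave 0.65 ± 0.114 (SE) as log2 fold change with an edgeR adjusted p = 0.00228. Its call held in all 12 alternatives.

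Jak3, which is bound to the gamma chain and largely restricted to blood cells, lies at chr8:71676296-71690575. Control replicates 1, 2 and 3 held 269, 248 and 320.2 CPM and the KO replicates 337, 350.3 and 389 CPM. The lowest KO library stood just above control replicate 3. The means were 279 ± 37.1 and 359 ± 26.8 CPM (SD, n = 3), and the fitted change of 0.36 ± 0.133 (log2, SE) missed the threshold (edgeR adjusted p = 0.0522). With the replicate number as a block Jak3 passed (0.37, adjusted p = 0.0160), and without control replicate 3 as well (0.42, adjusted p = 0.0322). Jak1 minus Jak3 differed between the groups by 0.28 on the log2 scale (0.22 ± 0.204 in control and 0.50 ± 0.0431 in KO, SD, n = 3, exact permutation p = 0.1, adjusted over 5 pairs 0.1). Of the exonic bases of Jak3, 7.55% are also annotated to Insl3, so its count is uncertain in that part.

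Stat5a and Stat5b encode closely related factors and are neighbours on chromosome 11, transcribed away from each other. Stat5b occupies chr11:100780731-100850724 on the minus strand and Stat5a chr11:100859351-100885169 on the plus strand, with 8.6 kb between their starts. Stat5a rose, and the estimate for Stat5b was negative. Stat5a held 306, 234 and 283 CPM in the control libraries by number, and 363, 358 and 445 CPM in the KO replicates. The groups did not overlap, and the mean went from 274 ± 37.0 to 389 ± 48.8 CPM (mean ± SD, n = 3), and the model gave 0.50 ± 0.146 (SE) as log2 fold change with an edgeR adjusted p = 0.0213. This call was lost without control replicate 2 (0.39, adjusted p = 0.0664), without KO replicate 3 (0.39, adjusted p = 0.0842) and with the libraries numbered 1 and 2 alone (0.42, adjusted p = 0.05995).

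Stat5b held 326, 311 and 393 CPM in the control libraries by number, and 262, 259 and 296 CPM in the KO replicates. Again no KO library overlapped a control library. The means were 344 ± 43.4 and 272 ± 20.9 CPM (mean ± SD, n = 3), and the fitted change of -0.34 ± 0.131 (log2, SE) missed the threshold (edgeR adjusted p = 0.0626). Blocking on replicate number made it a call (-0.33, adjusted p = 0.0221), and so did leaving out control replicate 2 (-0.42, adjusted p = 0.0449).

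Within each library the order of the pair was reversed between the groups. On the log2 CPM scale, Stat5a minus Stat5b was -0.091, -0.41 and -0.47 for control numbers 1, 2 and 3, whereas the KO libraries gave 0.47, 0.47 and 0.59. Stat5b thus had more counts than Stat5a in all 3 control libraries and fewer in all 3 KO libraries. The shift was 0.84, and the exact permutation p was 0.1 before and after adjustment over the 5 pairs. Sequence shared by the pair is limited: 8.52% of the 50-base stretches of Stat5a occur in other genes, mainly Stat5b, and 11.0% of those of Stat5b, mainly in Stat5a.

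**Figure D3:**
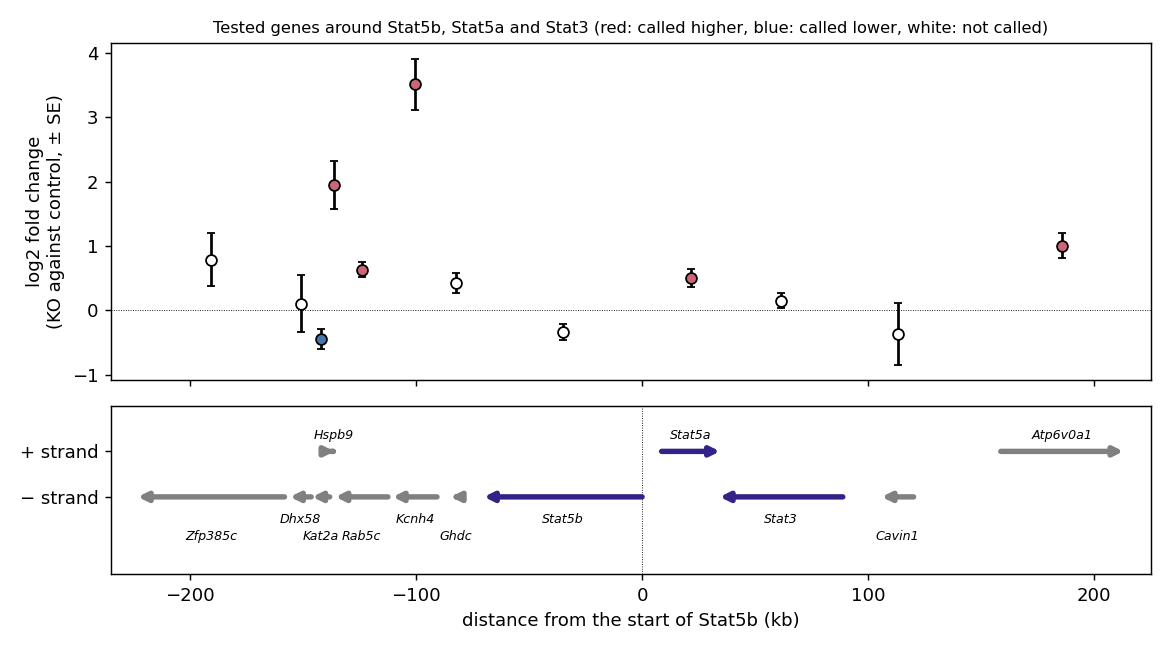
Upper panel: log2 fold change of each tested gene around Stat5b, Stat5a and Stat3, with its SE. Lower panel: the genes as arrows in the direction of transcription, against distance in kb from the start of Stat5b. Stat5a is called higher (0.50) beside Stat5b (-0.34) and Stat3 (0.15), which are not called.

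Stat3, the factor that relays IL-6 and IL-23 signals in Th17 cells, is the next gene, and its 3′ end overlaps that of Stat5a by 72 bases on the opposite strand. Its log2 fold change was 0.15 (edgeR adjusted p = 0.316). Within 100 kb of the 3 STAT genes, 12 genes including them were tested, of which 5 were called higher, 1 lower and 6 were not called. Taken in either direction this is close to the background, where 46.1% of all tested genes were called. By direction it is less even than the background of 23.2% called higher and 22.9% lower, which was not tested. Those called higher included Stat5a itself and genes that averaged only 0.451 and 0.404 CPM in control.

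**Figure D4:**
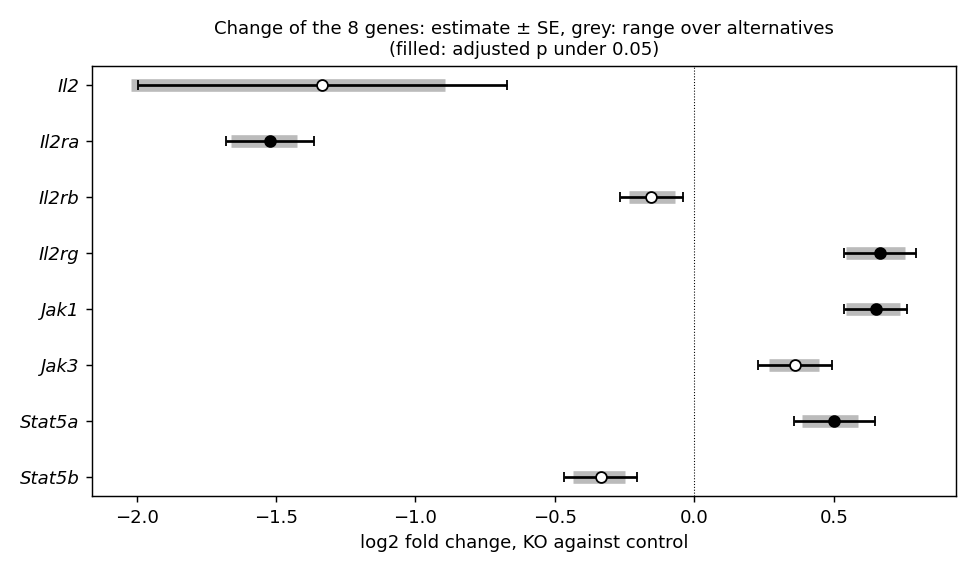
Log2 fold change of KO against control for each of the 8 genes (points, whiskers: SE, filled where the adjusted p is under 0.05), with the range over 12 alternative fits in grey. Il2 has the widest range, -2.02 to -0.90, and no range crosses 0.

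In the order of levels per length, Il2ra and Il2rb came first and second in both groups and Il2rg next, and these 3 did not overlap each other. In control, Stat5b (62.0 ± 7.84 RPKM), Jak3 (52.2 ± 6.93), Jak1 (44.7 ± 2.09), Il2 (43.7 ± 28.9) and Stat5a (38.5 ± 5.19) followed (SD, n = 3), and each of these overlapped its neighbour in the order, as Il2rg did Stat5b. In KO the order was Jak1 (70.2 ± 4.03 RPKM), Jak3 (67.0 ± 5.01), Stat5a (54.5 ± 6.84), Stat5b (49.2 ± 3.77) and Il2 (17.4 ± 10.4). There Jak1 overlapped Jak3, and Stat5a overlapped Stat5b. Among the called genes, Il2ra spans 50.4 kb, Jak1 112.9 kb, Stat5a 25.8 kb and Il2rg 3.9 kb, beside a median of 20.1 kb over tested genes.

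The genes whose profile over the 6 libraries lay closest to Il2 included another gamma chain cytokine. Likeness was the Euclidean distance between centred log2 CPM values, over 8487 genes that averaged 10 CPM or more and had a standard symbol. Il9 was the nearest to Il2, at a distance of 1.14, with 449.6, 344 and 54.8 CPM in control by number, against 197, 42.2 and 69.95 CPM in the KO replicates. Ccr6 (1.45), Lad1 (1.68), Il1rn (1.77) and Slc2a6 (1.78) followed. As in Il2, the Il9 values of the groups overlapped through control replicate 3 (log2 fold change -1.46, edgeR adjusted p = 0.133). Il9 was called without that library (-1.99, adjusted p = 0.00714) or without KO replicate 1 (-2.34, adjusted p = 0.0374). Since Il9 was picked for its likeness to Il2 in these same libraries, the shared overlap follows from the choice and is no separate result. Of the 5, Ccr6, a chemokine receptor of Th17 cells, was called lower (-1.15, adjusted p = 0.0412), a call that ended without control replicate 1 or 2 or KO replicate 2 or 3. The genes nearest to Il2ra were Msh3, Nsl1, Tfdp2, Cmtm4 and Fam185a, at distances of 0.161 to 0.247. Their log2 fold changes of -1.66 to -1.47 are close to that of Il2ra because the rule picks genes with such a profile.

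Other receptors and ligands of the gamma chain family were called lower more often than higher. Of 10 such genes 8 were tested, and 4 were called lower and 1 higher, where 22.9% of all tested genes were called lower and 23.2% higher. The higher count was 2 without control replicate 3 or under the replicate block, and the lower count was 3 without KO replicate 2 or KO replicate 3. The median log2 fold change was -1.31. Il21, a cytokine that Th17 cells make, fell from 724 ± 72.3 to 162 ± 50.1 CPM (SD, n = 3; -2.16, edgeR adjusted p = 0.000236). Il4, the Th2 cytokine, fell from 7.96 ± 3.54 to 1.21 ± 0.432 CPM (-2.70, adjusted p = 0.00166), and Il7r, the IL-7 receptor chain that keeps resting T cells alive, from 138 ± 48.7 to 61.5 ± 3.65 CPM (-1.17, adjusted p = 0.00307). Il15ra, which presents IL-15 to the beta and gamma chains, rose from 2.58 ± 0.380 to 13.8 ± 2.75 CPM (2.42, adjusted p = 0.000224). Il9r was low and fell (-1.91, adjusted p = 0.0228), but this did not pass in 4 of the 6 leave-one-out fits and was -1.28 without control replicate 3. Neither Il4ra (0.21, adjusted p = 0.311) nor Il21r (0.35, adjusted p = 0.105) was called, though Il21r passed under the replicate block (0.37, adjusted p = 0.0161). Il7 and Il15 had too few counts to be tested, 0 to 3 and 0 to 8 per library.

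**Figure D5:**
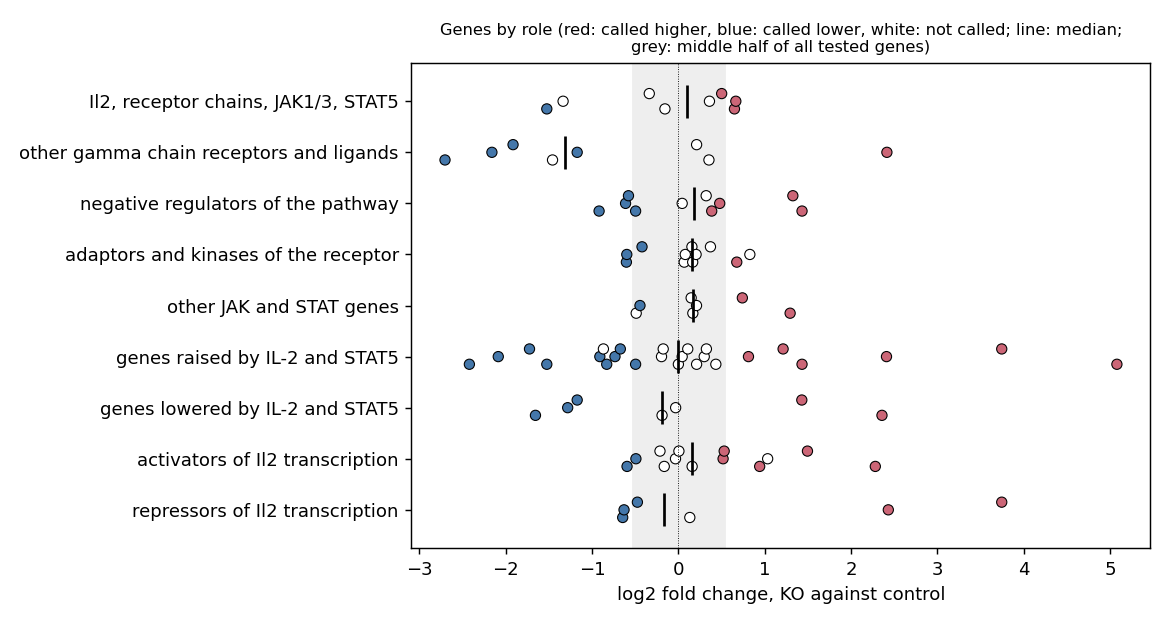
Log2 fold change of KO against control for each tested gene of the axis and of 8 lists of related genes (points, red: called higher, blue: called lower, white: not called), with the median of each list as a line and the interquartile range of all tested genes in grey. The other gamma chain receptors and ligands have a median of -1.31, and the other lists have medians between -0.19 and 0.18.

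Feedback inhibitors, phosphatases and the genes Pias1 and Pias3, listed together as regulators of the pathway, were called in both directions. Of 10 genes tested, 4 were called higher and 4 lower, where 23.2% of all tested genes were called higher and 22.9% lower. The median log2 fold change of the 10 was 0.18. Without control replicate 1, KO replicate 2 or KO replicate 3, the higher count was 2. Cish, which STAT5 induces and which blocks STAT5 docking, fell from 312 ± 30.6 to 221 ± 10.6 CPM (SD, n = 3; -0.49, edgeR adjusted p = 0.00937), a call lost without KO replicate 2 (adjusted p = 0.0520). Socs2 and Socs3, of the same family of inhibitors, rose: Socs2 from 108 ± 21.8 to 291 ± 37.1 CPM (1.43, adjusted p = 0.000457) and Socs3 from 85.7 ± 16.5 to 215 ± 16.6 CPM (1.33, adjusted p = 0.000395). Socs1, which inhibits JAK kinases, stood at 105 ± 3.94 and 108 ± 3.56 CPM (0.045, adjusted p = 0.734), and its sign turned in 2 of the 6 leave-one-out fits. The phosphatase genes Ptpn2, Ptpn6 and Ptprc (CD45) fell by 0.92, 0.61 and 0.58 on the log2 scale (adjusted p = 0.000528, 0.00481 and 0.00444). Ptpn11 (0.39, adjusted p = 0.0222) and Pias3 (0.48, adjusted p = 0.0291) were called higher, but did not pass in 5 and 4 of the 6 leave-one-out fits.

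Of 11 adaptor and kinase genes tested downstream of the receptor, 1 was called higher and 3 lower, with a median log2 fold change of 0.16. Most genes were not called over the whole table either, where 46.1% were called in either direction. The higher count was 2 without control replicate 2 or 3, and also under the replicate block, and the lower count was 1 without KO replicate 2. Pik3r1, a regulatory subunit of phosphoinositide 3-kinase, rose (0.68, edgeR adjusted p = 0.00385), while Pik3cd, its main catalytic subunit in lymphocytes, fell (-0.60, adjusted p = 0.0118). The kinase genes Lck (-0.60, adjusted p = 0.00785) and Mtor (-0.42, adjusted p = 0.0164) fell too. Without KO replicate 2, Pik3cd (adjusted p = 0.0550) and Mtor (adjusted p = 0.0780) lost their calls, and Mtor did also without KO replicate 3 (adjusted p = 0.0538).

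Other JAK and STAT genes were called in both directions, as were all tested genes, of which 23.2% were called higher and 22.9% lower. Stat2, which carries interferon signals, rose from 68.5 ± 19.5 to 168 ± 38.0 CPM (SD, n = 3; 1.29, edgeR adjusted p = 0.00223). Jak2 fell (-0.44, adjusted p = 0.0169), yet missed the threshold in 3 of the 6 leave-one-out fits. Stat4 was not called (-0.49, adjusted p = 0.0677), but passed in 6 of the 12 alternatives, among them the replicate block (-0.47, adjusted p = 0.00494) and the fits without control replicate 1 (-0.68, adjusted p = 0.0289) or KO replicate 3 (-0.64, adjusted p = 0.0413), and 21.7% of its stretches are shared with other genes. Among the uncalled genes, Stat6 had a log2 fold change of 0.21 and Tyk2 of 0.17.

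Genes known to be raised by IL-2 and STAT5 were called in both directions. Leaving out Il2ra itself, 24 were tested, of which 6 were called higher, 8 lower and 10 not called, where 46.1% of all tested genes were called. Their median log2 fold change was 0.023. Among those lower, Ctla4, an inhibitory receptor, went from 1002 ± 30.2 to 236 ± 16.2 CPM (SD, n = 3; -2.09, edgeR adjusted p = 3.9e-05). Tnfrsf4, the costimulatory receptor OX40, went from 473 ± 24.2 to 143 ± 13.3 CPM (-1.72, adjusted p = 7.0e-05), and Il10, an anti-inflammatory cytokine, from 124 ± 23.4 to 23.2 ± 3.35 CPM (-2.42, adjusted p = 7.1e-05). Myc (-0.73, adjusted p = 0.00193), Bcl2 (-0.91, adjusted p = 0.0204), Tnfrsf18 (-0.67, adjusted p = 0.0140) and Lta (-0.83, adjusted p = 0.0490) were lower as well, as was Cish. The Bcl2 call was lost without KO replicate 1 (adjusted p = 0.0632) or KO replicate 2 (adjusted p = 0.0587), and that of Lta in 4 of the 6 leave-one-out fits. The count of Tnfrsf18 is uncertain in part, with 18.7% of its 50-base stretches shared with other genes.

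Those higher, apart from Socs2, included genes of the cytotoxic program. Prf1, encoding perforin, rose from 0.328 ± 0.136 to 12.1 ± 3.63 CPM (SD, n = 3; 5.08, edgeR adjusted p = 7.7e-05), and Gzmb, encoding granzyme B, from 2.42 ± 0.371 to 13.02 ± 7.08 CPM (2.41, adjusted p = 0.00162). Prdm1, encoding the repressor BLIMP1, rose from 0.676 ± 0.344 to 9.63 ± 4.88 CPM (3.75, adjusted p = 0.000585). Ccnd2, the cyclin D2 gene, rose from 835 ± 91.5 to 1466 ± 229 CPM (0.81, adjusted p = 0.00337). Foxp3 was called higher at a low level (1.21, adjusted p = 0.0244) but not in 4 of the 6 leave-one-out fits. Of its 50-base stretches, 23.1% are shared with other genes, mainly Flicr.

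The 7 genes known to be lowered by IL-2 and STAT5 also divided, with 2 called higher and 3 lower, beside 46.1% of all tested genes called. Their median log2 fold change was -0.19. Bcl6, the repressor that STAT5 opposes, rose from 8.23 ± 0.895 to 42.2 ± 5.93 CPM (SD, n = 3; 2.36, edgeR adjusted p = 6.8e-05). Il6st, the signalling chain of the IL-6 receptor, rose from 75.4 ± 7.38 to 203 ± 2.98 CPM (1.43, adjusted p = 0.000104). Il17a (-1.65, adjusted p = 0.0125), Il17f (-1.28, adjusted p = 0.0144) and Il7r were called lower. Without KO replicate 1 the change of Il17a was larger (-2.32, adjusted p = 0.00122), and without KO replicate 2 it was smaller (-1.29). The Il17a call held in all 12 alternatives, whereas Il17f did not pass in 3 of the 6 leave-one-out fits.

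Among 13 activators of Il2 transcription, 5 were called higher and 2 lower, beside 46.1% of all tested genes called in either direction. The median log2 fold change of the 13 was 0.16. Fos, a subunit of AP-1, rose from 7.40 ± 1.80 to 35.6 ± 5.46 CPM (SD, n = 3; 2.28, edgeR adjusted p = 0.000179), and its partner Jun from 51.3 ± 5.39 to 145 ± 11.6 CPM (1.496, adjusted p = 0.000119). Egr1 (0.94, adjusted p = 0.0160) and the NF-kB genes Rel (0.53, adjusted p = 0.00985) and Rela (0.52, adjusted p = 0.00610) rose. Nfkb1 (-0.59, adjusted p = 0.0278) and the octamer factor gene Pou2f1 (-0.49, adjusted p = 0.0286) were called lower, but not when scaled by library size alone, nor in 4 and 3 of the 6 leave-one-out fits, and 17.0% of the stretches of Pou2f1 are shared with other genes. Among 6 repressors of Il2, Tob1 rose from 14.6 ± 0.689 to 78.9 ± 19.4 CPM (2.43, adjusted p = 8.3e-05) along with Prdm1. Ikzf1 (-0.63, adjusted p = 0.00290), Zeb1 (-0.64, adjusted p = 0.00709) and Crem (-0.47, adjusted p = 0.0271) fell, though Crem did not pass in 2 of the 6 leave-one-out fits or with library size alone. In all, 2 of the 6 repressors were called higher and 3 lower, where 23.2% of all tested genes were called higher and 22.9% lower.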

How the data were processed

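RNA was measured in 3 control and 3 KO libraries. The authors deposited 1 table of whole-number read counts by gene symbol, with no sign of scaling in its values, and 0 columns lacked a sample. STAR, featureCounts and DESeq2 and the build mm10 are named in the submitters' processing notes, without versions. The annotation and strand setting are not given in the sources used here, so reads of overlapping genes cannot be told apart.

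From the counts, edgeR 4.0.16 (R 4.3.3) was run on all 6 libraries, after filterByExpr and TMM scaling, with the quasi-likelihood test and Benjamini-Hochberg adjustment over all 14268 genes kept. The script was tested on simulated data. CPM uses the same factors. The SE of a log2 fold change is its size over the square root of F. Log2 CPM used a prior count of 2. RPKM divides CPM by the merged exonic length in GENCODE M21 (GRCm38), not by the authors' own gene models. The common biological coefficient of variation was 0.212. PCR reads without molecular identifiers are not independent molecules.

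Genes named are the 8, Rtf1, genes of fixed lists that were called or define their list, and for Il2 and Il2ra the 5 genes with the most similar profile. The members and lists were chosen with earlier results of these data known. Libraries of equal number deviated together (r = 0.27, 0.13 and 0.379 across genes), so the numbers may pair them. The evidence is weak, since control 2 and KO 1, of unequal number, gave 0.204, above the pair numbered 2. The other unequal pairs gave -0.39 to -0.018. This possible pairing comes from the data, since no label explains the numbers. The main fit and the permutation tests did not use it, whereas the replicate block did. The 12 alternatives were DESeq2 size factors, library size only, no filter, DESeq2 (1.42.0), the replicate block, each library left out, and the libraries numbered 1 and 2 alone. A gene of the lists is not reported here.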

Additional observations from a re-analysis of the deposited data

Results flagged for a closer look

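Il2 differed in direction between libraries of different number. KO minus control on the log2 CPM scale was -1.45 for number 1 and -3.28 for number 2, but 0.96 for number 3, the number whose libraries carry Y-linked counts. The other 7 genes had the same sign in all 3 numbers. The difference was not tested, since number 3 has 1 library per group.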

How the results depend on the processing

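No alternative changed the direction of any of the 8 genes. Members called lower numbered 1, and 2 without a filter, with DESeq2, with the replicate block and with the libraries numbered 1 and 2 alone, and 1 to 2 when 1 library was left out. The replicate block changed no call among the 8 genes other than Jak3 and Stat5b, which raised the members called from 4 to 6. Jak3 was called also with library size only (0.45, edgeR adjusted p = 0.0230), with DESeq2 (0.35, adjusted p = 0.0401) and with the libraries numbered 1 and 2 alone (0.41, adjusted p = 0.0384), and Stat5b with DESeq2 (-0.34, adjusted p = 0.0441). Scaling by library size only moved the median log2 fold change of all genes from 0.013 to 0.10. Without any 1 KO library, the exact permutation p of Jak1 minus Jak3 was 0.2. Genes called lower over the whole table ranged from 2170 (without KO replicate 2) to 3700 when 1 library was left out, beside 3269 with all. Socs1 turned to -0.054 and -0.0045 without control replicates 1 and 3, within a leave-one-out range of -0.054 to 0.067. Over the 79 named genes and 12 alternatives, 843 of 948 values kept direction and call, 63 lost a call, 40 gained one and 2 changed sign, and the cause was not tested. Of 192 counts for the lists without markers, 24 differed from the main count by over 1.5 times. All of these rest on counts of 5 or fewer: activators of Il2 called lower went from 2 to 0 with library size only, and other JAK and STAT genes called lower from 1 to 2 with the block and with DESeq2, and to 0 without KO replicate 2.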
